A study of Mus musculus with 3 samples.

Results

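The 7 genes followed here serve membrane excitation and calcium handling in skeletal muscle: the acetylcholine receptor subunits Chrna1, Chrnd and Chrng, the calcium release channel Ryr1, the calcium pump Atp2a1, its inhibitor Sln and the caveolin Cav3. They were chosen by symbol, and all 7 were among the 16181 genes of the count tables. The data came from the cerebella of 3 mice at postnatal day P7, all of the genotype Math1-Cre/Eed fl/fl (Eed cKO) and untreated, with 1 Drop-seq library per mouse. Math1 is another name for Atoh1, so the Cre acts in cells with a history of Atoh1 expression, mainly cerebellar granule neuron progenitors (CGNPs) and the granule neurons (CGNs) they form. There it removes Eed, a subunit that Polycomb Repressive Complex 2 needs to place the repressive mark H3K27me3. The cells came from dissociated pieces, each the cerebellum on one side of the midline. Mice without the deletion were not analysed here, so every comparison is between cell groups of the same Eed cKO mice and none is between genotypes.

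In a muscle fibre, acetylcholine released by the nerve opens a receptor built from an alpha, a beta and a delta subunit together with a gamma subunit before birth or an epsilon subunit after it. The action potential that follows runs into the T-tubules, where a voltage sensor opens the ryanodine receptor of the sarcoplasmic reticulum, and the released calcium starts contraction. A calcium pump returns the calcium to the reticulum, under the control of small membrane peptides such as sarcolipin, and caveolin-3 shapes the surface membrane. Neurons and glia of the cerebellum mostly use other members of these families, although Ryr1 is also known from Purkinje neurons.

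The cells that passed the filters numbered 2373, with 547 to 918 per mouse, median depths of 857 to 1408 unique molecular identifiers (UMIs, each standing for 1 captured RNA molecule) and 540816 to 1536645 UMIs in all per mouse. No cell barcode was shared between mice. Eed itself gave 43, 18 and 53 UMIs in mice 1, 2 and 3, and 4 UMIs in the muscle-like cells. These counts of the 3′ end do not show the deletion itself, because a transcript that lacks the floxed part may still carry its 3′ end. In clustering without the 7 genes and their listed relatives, 1 cluster of 75 cells was muscle-like, with 27, 20 and 28 cells in mice 1, 2 and 3. All 23 measured muscle markers were detected in it, and their summed level was 32606 to 56071 CPM across mice (UMIs of the summed cells scaled to a total of 1000000) against 229 to 327 CPM in all other cells. The remaining 2298 cells formed proliferating or differentiating CGNP/CGN-like groups (1200 cells), groups of types outside the Atoh1 lineage (938 cells) and 1 unnamed cluster (160 cells). The unnamed cluster had Syt4, Snhg11, Pcp4 and Calb1 as its strongest genes and held as many markers of Purkinje neurons (3) as of differentiating CGNP/CGNs (3). Without the upper limit on molecules per cell, a cluster of 171 cells led by Pcp4, Pcp2 and Calb1 was Purkinje-like by 5 markers. The unnamed cells were counted among all other cells only. The Eed level was 21.8 ± 8.03 CPM (SD, n = 3) in the CGNP/CGN-like cells and 65.1 ± 17.6 CPM in the cells outside the lineage, with no overlap between mice (log2 fold change -1.44, edgeR quasi-likelihood adjusted p = 0.016, in a comparison where 8.66% of 7573 genes were lower). The adjusted p of Eed was 0.099 without mouse 1 and 0.16 without mouse 2. In the muscle-like cells it was 20.5 ± 18.7 CPM, on 4 UMIs.

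Markers of other cells were also summed in the muscle-like cells. Of 12 proliferating CGNP markers 11 were detected, at 99.0 to 317 CPM against 2410 to 3290 CPM in other cells, with Mycn at 0. Of 11 differentiating CGNP/CGN markers 10 were detected, at 701 to 889 CPM against 3300 to 3900 CPM, with Nhlh1 at 0. Among them Sema6a was at 235 ± 54.0 CPM (SD, n = 3) in the muscle-like and 180 ± 31.3 CPM in other cells. Of the 7 vascular fibroblast markers 3 were detected, at 4206 to 6655 CPM against 654 to 955 CPM. Of these UMIs 699 were of Igf2, 1 of Col1a2 and 1 of Col3a1, while Dcn, Col1a1, Lum and Pdgfrl were at 0.

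For smooth muscle, 3 of 4 markers were detected at 742 to 1076 CPM against 24.1 to 46.1 CPM, mostly Acta2 (74 UMIs) and Smtn (49 UMIs), and the defining Myh11 was at 0. For cardiac muscle, 3 of 4 markers were detected at 50.0 to 170 CPM against 5.76 to 18.6 CPM, and Tbx5 was at 0. The 3 satellite cell markers (Cdh15, Myf5 and Sdc4) were detected at 25.0 to 146 CPM against 13.4 to 28.2 CPM, on 8, 5 and 1 UMIs. None of the 5 ependymal markers was detected, 1 of 7 endothelial and 2 of 7 myeloid markers had a UMI, and Pdgfrb, Rgs5 and 3 more of 7 pericyte markers were at 0. Summed markers of interneurons, their progenitors, Purkinje neurons, astrocytes, oligodendrocytes, Schwann cells and erythroid cells were lower in the muscle-like than in the other cells of all 3 mice, at 0 to 346 CPM against 223 to 3151 CPM. Those of unipolar brush cells, at 50.0 to 122 CPM and 102 to 143 CPM, overlapped. Their part in the results was not tested.

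The genes lie on 5 autosomes of the mouse build GRCm38 (GENCODE M21, which is mm10). Chrnd (chr1:87190607-87200070, + strand) and Chrng (chr1:87204657-87212694, + strand) are neighbours with 4586 bases between them. Chrna1 lies at chr2:73563215-73580338 on the - strand, Cav3 at chr6:112459505-112472872 on the + strand and Sln at chr9:53850164-53854560 on the + strand. Ryr1 lies at chr7:29003344-29125179 and Atp2a1 at chr7:126445858-126463108, both on the - strand. Atp2a1 overlaps Rabep2 on the opposite strand, and Ryr1 overlaps 3 genes on the opposite strand and 1 on its own, and whether the counting used strand is not given in the sources used here. Rabep2 had 4 UMIs in the muscle-like cells and 31 in all other cells, where Atp2a1 had 0.

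RefSeq promoter windows (GRCm38.p6) were at hand for 5 of the 7 genes. The 250 bases before the RefSeq start were searched on both strands for the E-box CANNTG, the letters that basic helix-loop-helix factors such as myogenin and MyoD bind, and for its form CAGCTG, every match of which is also a match of CANNTG. Chrng and Chrna1 each held 3 E-boxes, 2 of them CAGCTG, while Cav3 held 2 and Atp2a1 held 1, with 1 CAGCTG each. Ryr1 held none. The RefSeq start is that of the GENCODE gene for Chrna1 and Cav3 and lies 28 bases inside it for Ryr1 and 35 for Atp2a1. For Chrng it lies 1154 bases inside, so that the Chrng window falls within the gene as given above. Of all 32851 windows, 66.2% held at least 1 CANNTG, 12.2% held at least 3, 13.0% held at least 1 CAGCTG and 1.26% held at least 2. The MEF2 motif and the CArG motif were found in none of the 5 windows, against 0.508% and 1.47% of all windows. The windows of Chrna1 and Cav3, and the part of the Atp2a1 window that lies outside its annotated exons, are shown because they carry these matches before 3 genes with 29 to 36 UMIs in the muscle-like cells. E-boxes are in capitals, and each run reads 5′ to 3′ on the strand of its gene, at chr2:73580339-73580588 (-), chr6:112459255-112459504 (+) and chr7:126463109-126463323 (-). Matches of letters are a description and show no binding.
Chrna1: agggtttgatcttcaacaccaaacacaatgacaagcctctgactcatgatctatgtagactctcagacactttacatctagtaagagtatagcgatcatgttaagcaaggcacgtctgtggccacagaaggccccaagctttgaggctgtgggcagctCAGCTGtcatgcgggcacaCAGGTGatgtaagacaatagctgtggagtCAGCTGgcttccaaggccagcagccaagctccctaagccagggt
Cav3: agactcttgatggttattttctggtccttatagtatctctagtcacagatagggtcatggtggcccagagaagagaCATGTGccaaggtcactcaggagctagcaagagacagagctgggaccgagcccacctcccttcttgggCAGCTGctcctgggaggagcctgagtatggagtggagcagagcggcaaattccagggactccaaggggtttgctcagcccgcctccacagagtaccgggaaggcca
Atp2a1: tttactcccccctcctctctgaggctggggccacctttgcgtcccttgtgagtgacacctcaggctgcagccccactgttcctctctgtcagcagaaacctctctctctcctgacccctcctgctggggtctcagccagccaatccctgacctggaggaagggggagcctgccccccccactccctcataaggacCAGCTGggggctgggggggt

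The comparison of muscle-like cells with all other cells asked where in these cerebella the muscle forms were transcribed. Of the 339 UMIs of the 7 genes, 309 lay in the 75 muscle-like cells and 30 in the 2298 others. Sln, Chrna1, Atp2a1, Cav3 and Ryr1 were each detected in the muscle-like cells of all 3 mice, and every muscle-like level lay above every level in other cells. Of all 5870 genes tested, 12.0% were placed like this. In mouse 2 the muscle-like levels of Ryr1 and Cav3 rest on 2 and 3 UMIs. Chrnd and Chrng gave 2 and 4 UMIs in the muscle-like cells and had none in the muscle-like cells of 2 mice and 1 mouse. The cells had been grouped by other muscle genes of the same cells, so the tests below measure the spread between mice and are no independent proof that the cells are muscle.

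**Figure D1:**
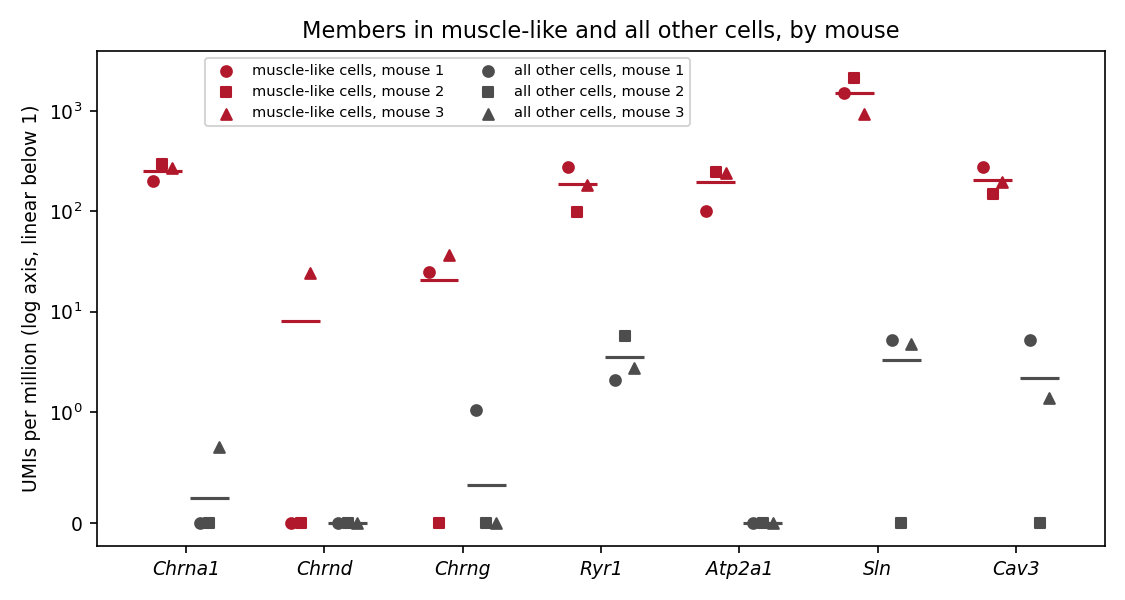
Level of each gene in CPM (log axis, linear below 1) in the summed muscle-like cells (red) and all other cells (grey) of each mouse, with the marker shape giving the mouse and the bar the mean of 3 mice. For Chrna1, Ryr1, Atp2a1, Sln and Cav3 every red point lies above every grey point, from 99.0 CPM upward against at most 5.76 CPM, while Chrnd and Chrng have muscle-like sums at 0. The point at 99.0 CPM, Ryr1 in mouse 2, stands for 2 UMIs.

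Chrna1 encodes the alpha subunit, which holds the acetylcholine binding site of the muscle receptor. It gave 8, 6 and 22 UMIs in the muscle-like cells of mice 1, 2 and 3, or 200 CPM, 297 CPM and 268 CPM (mean 255 ± 49.6, SD, n = 3). In all other cells a single UMI was found, in a differentiating CGNP/CGN-like cell of mouse 3. The levels were high in the muscle-like cells of every mouse and at or near 0 elsewhere. The ratio of the pooled levels was 744, with an exact 95% counting interval of 125 to 30173. Its denominator is that 1 UMI of mouse 3, and with all of mouse 3 left out the level was at least 115-fold higher. In edgeR's quasi-likelihood test the log2 fold change was 8.68 ± 0.68 (SE, adjusted p = 3.0e-14). Like the ratio, this size rests on 1 UMI in the other cells. Over the alternative fits with all 3 mice it ran from 8.56 to 9.70.

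Chrnd, the delta subunit, was seen only as 2 UMIs in 2 muscle-like cells of mouse 3 and as none in the 2298 other cells. Because both counts are at or under the floor of 3 counts used here, no fold is given. Chrng encodes the gamma subunit of the fetal receptor. It had 1, 0 and 3 UMIs in the muscle-like cells of mice 1, 2 and 3, and 1 UMI in all other cells, in an interneuron-like cell of mouse 1. The pooled ratio for Chrng was 82.6, with a wide exact interval of 8.18 to 4068. Without mouse 1 or without mouse 3 its counts in both groups were at or under the floor and give no ratio. Neither gene passed the filter on low counts. Without that filter their edgeR quasi-likelihood adjusted p were 0.28 for Chrnd and 0.15 for Chrng, in a fit that called 2.39% of all genes higher.

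The partner subunit Chrnb1 was counted in the same cells. It had a level of 144 ± 66.1 CPM (SD, n = 3) in the muscle-like cells and 2.43 ± 1.27 CPM in the others (log2 fold change 5.99, edgeR quasi-likelihood adjusted p = 1.6e-10). Rapsn, which clusters the receptor at the synapse, gave 5 UMIs in muscle-like cells and 7 in the others. Chrne and Musk were not among the genes counted. Among 4 neuronal receptor subunits, the muscle-like cells held 4 UMIs, all of Chrna4, while the other cells held 68 of Chrna3, 21 of Chrnb2, 14 of Chrnb4 and 11 of Chrna4. The muscle-type subunits Chrna1, Chrnb1, Chrnd and Chrng thus made up 65 of 69 receptor UMIs in muscle-like cells (94.2%, exact 95% interval 85.8 to 98.4%). In all other cells they were 8 of 122 (6.56%, 2.87 to 12.5%). Within mice the share ran from 90.0% to 100% in muscle-like cells and from 5.26% to 9.68% in the others. Relative to all UMIs of the group, Chrna4 was higher in the muscle-like cells, with 4 of 142297 against 11 of 2938905.

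Ryr1 is the calcium release channel of skeletal muscle. Its muscle-like sums were 11, 2 and 15 UMIs in mice 1, 2 and 3, or 275 CPM, 99.0 CPM and 183 CPM (mean 186 ± 88.2, SD, n = 3). All other cells gave 2, 3 and 4 UMIs, or 2.08 CPM, 5.76 CPM and 2.75 CPM. Mouse 2 had both the lowest muscle-like level and the highest level elsewhere, on 2 and 3 UMIs. The levels of the groups did not overlap, but these counts are at or under the floor of 3 and give no order within mouse 2. The pooled ratio was 64.3 (exact 95% interval 29.5 to 155), and edgeR's quasi-likelihood test gave a log2 fold change of 5.80 ± 0.58 (SE, adjusted p = 5.4e-11).

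The 9 Ryr1 UMIs outside the muscle-like cells fell in the CGNP/CGN-like cells (5) and in the unnamed cluster with Pcp4 and Calb1 (4). The latter were 2.50% of its 160 cells, beside 0.300% of proliferating and 0.563% of differentiating CGNP/CGN-like cells. The unnamed cells were deeper, with a median of 1472.5 UMIs against 1160 and 900, and with every cell thinned to 500 UMIs the shares averaged over mice were 0.794%, 0.0843% and 0.391%. Sln also had its highest share of these groups in the unnamed cells, with a UMI in 3 of 160 cells against 4 of 667 and 1 of 533, and counts this small give no order. The 938 cells of named types outside the Atoh1 lineage, which leave out the unnamed cluster, had no Ryr1 UMI, which allows a share of up to 0.320% of cells with one. The relatives Ryr2, the cardiac form that neurons also use, and Ryr3 had 36 and 31 UMIs in the other cells and 0 in the muscle-like cells. Ryr1 was therefore 28 of 28 ryanodine receptor UMIs in muscle-like cells (100%, exact 95% interval 87.7 to 100%) and 9 of 76 elsewhere (11.8%, 5.56 to 21.3%). In the other cells of mouse 2 it was 3 of 8. The levels of Ryr2 and Ryr3 in the other cells averaged 9.77 CPM and 9.86 CPM over mice. A count of 0 in the muscle-like cells allows up to 21.1 CPM, so their zeros there do not show lower levels. The voltage sensor Cacna1s that opens the channel was sparse, with 5 UMIs in muscle-like cells and 6 in the others.

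Atp2a1 encodes SERCA1, the calcium pump of fast skeletal muscle. It gave 4, 5 and 20 UMIs in the muscle-like cells of mice 1, 2 and 3, or 100 CPM, 247 CPM and 244 CPM (mean 197 ± 84.0, SD, n = 3). No UMI was found in any of the 2298 other cells, which allows a share of up to 0.131% of cells with a UMI. Against a floor of 3 counts over all other cells the pooled level was at least 199.6-fold higher. Mouse 3 gave 20 of the 29 UMIs, and without it the limit was 74.0-fold. The edgeR quasi-likelihood adjusted p was 4.9e-13, and its fitted fold change is not given as a size because it depends on the prior count.

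The general pump Atp2a2 was found in both groups, with 15 UMIs (82.3 ± 71.3 CPM, SD, n = 3) in muscle-like cells and 419 UMIs (135 ± 45.6 CPM) in the others. Its difference did not pass the test (log2 fold change -0.48, edgeR quasi-likelihood adjusted p = 0.53). Atp2a3 had 0 and 7 UMIs. Atp2a1 made up 29 of 44 pump UMIs in muscle-like cells (65.9%, exact 95% interval 50.1 to 79.5%) and 0 of 426 elsewhere (upper bound 0.862%). The 3 mice had Atp2a1 at 4 of 9, 5 of 5 and 20 of 30 pump UMIs in muscle-like cells.

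**Figure D2:**
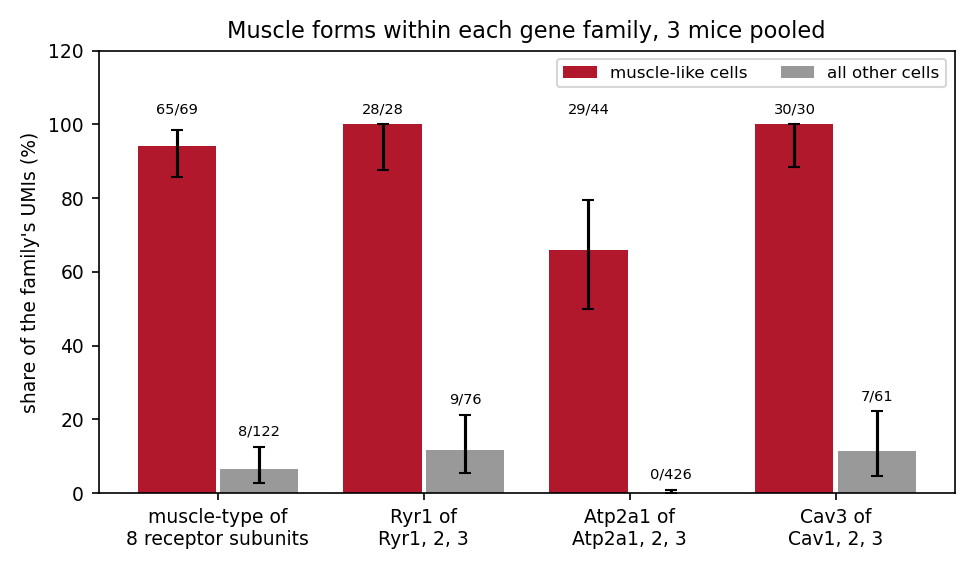
Share of each family's UMIs that belong to the muscle forms, in muscle-like (red) and all other (grey) cells pooled over 3 mice, with exact 95% intervals as error bars and the counts above them. For the acetylcholine receptor subunits, Ryr1, Atp2a1 and Cav3, the 4 families drawn, the pooled shares are 65.9% to 100% in muscle-like cells and 0 to 11.8% in all other cells. The shares alone do not show that the relatives were lower in muscle-like cells.

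Sln encodes sarcolipin, a small peptide that inhibits the pump and lets part of its work end as heat. It had 61, 43 and 76 UMIs in the muscle-like cells of mice 1, 2 and 3, or 1526 CPM, 2128 CPM and 925 CPM (mean 1526 ± 601, SD, n = 3). All other cells had 5, 0 and 7 UMIs. The muscle-like level was highest in mouse 2, where the 43 UMIs came from 5 cells. The pooled ratio was 309.8 (exact 95% interval 173 to 611) and 513 without mouse 3, with a log2 fold change of 8.29 ± 0.40 (SE, edgeR quasi-likelihood adjusted p = 2.6e-21). Counts were uneven between cells, since the highest cell held 28 Sln UMIs and the top 3 cells held 35.0% of those in the cluster.

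Myoregulin (Mrln, listed under its older symbol 2310015B20Rik), another pump inhibitor of muscle, was at 185 ± 11.6 CPM (SD, n = 3) in muscle-like cells and 14.0 ± 7.92 CPM in the others (log2 fold change 3.64, edgeR quasi-likelihood adjusted p = 3.2e-07). Sln made up 180 of the 206 UMIs of both inhibitors in muscle-like cells (87.4%, exact 95% interval 82.1 to 91.6%) and 12 of 51 elsewhere (23.5%, 12.8 to 37.5%). Phospholamban (Pln) was not among the genes counted.

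Cav3 encodes caveolin-3, the caveolin of striated muscle. Its 11, 3 and 16 UMIs in the muscle-like cells of mice 1, 2 and 3 came to 275 CPM, 148 CPM and 195 CPM (mean 206 ± 64.2, SD, n = 3). The other cells had 5, 0 and 2 UMIs, spread over proliferating CGNP-like (3), astrocyte-like (2), interneuron-like (1) and unnamed cells (1). The pooled ratio was 88.5 (exact 95% interval 38.1 to 239) and 183 without mouse 1, which held 5 of the 7 UMIs, with a log2 fold change of 6.26 ± 0.61 (SE, edgeR quasi-likelihood adjusted p = 2.2e-11). Cav1 and Cav2, the caveolins of endothelium and many other cells, had 26 and 28 UMIs in other cells and 0 in muscle-like cells. A count of 0 in the muscle-like cells allows up to 21.1 CPM. These zeros therefore do not show that Cav1 and Cav2 were lower there. Cav3 was 30 of 30 caveolin UMIs in the muscle-like cells (100%, exact 95% interval 88.4 to 100%) and 7 of 61 elsewhere (11.5%, 4.74 to 22.2%).

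In this comparison 5870 genes passed the filter, of which 6.42% were higher and 13.6% lower in the muscle-like cells at an adjusted p under 0.05. Of the 7 genes, 5 (Sln, Atp2a1, Ryr1, Cav3 and Chrna1) were tested, and those 5 were called higher. They passed the filter through the muscle-like sums, where they are high, so the count of calls adds nothing to the values above. Against the 1200 CGNP/CGN-like cells alone, the lineage of the deletion, the log2 fold changes were 8.38 for Sln, 5.76 for Ryr1, 6.51 for Cav3 and 7.89 for Chrna1 (edgeR quasi-likelihood adjusted p from 4.3e-20 to 2.1e-10). With 1 mouse left out they ran from 7.86 to 8.90 for Sln, 6.36 to 6.94 for Cav3 and 7.53 to 7.72 for Chrna1, which was not tested without mouse 3. Ryr1 was at 5.11 without mouse 1 and 6.81 without mouse 2. Atp2a1 had 0 UMIs in those cells and was at least 104-fold higher in the muscle-like cells, or 46.2-fold without mouse 3. In that comparison 8.89% of 4803 genes were higher. Without the filter on low counts Chrng also passed there (edgeR quasi-likelihood adjusted p = 0.031), in a fit that called 2.79% of genes higher, and it rests on 4 UMIs.

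Against the 938 cells outside the Atoh1 lineage, Sln (3 UMIs there) and Cav3 (3 UMIs) had log2 fold changes of 8.81 and 6.05 (edgeR quasi-likelihood adjusted p = 2.4e-10 and 7.0e-07), which ran from 8.46 to 9.22 and from 5.52 to 6.64 with 1 mouse left out. Atp2a1, Ryr1 and Chrna1 had 0 UMIs in those cells and were at least 77.7-fold, 75.1-fold and 96.5-fold higher in the muscle-like cells. Without mouse 3 these limits were 25.2-fold, 36.4-fold and 39.3-fold, and without mouse 1 that of Ryr1 was 43.7-fold. In that comparison 12.1% of 2782 genes were higher. None of the 7 genes passed the filter when CGNP/CGN-like cells were set against cells outside the lineage. Without the filter 9.81% of all genes were called in either direction there, and the 5 of the 7 genes that had a UMI did not pass, with edgeR quasi-likelihood adjusted p of 0.37 for Ryr1 and 0.72 to 0.96 for the others. The lowest unadjusted p among them was 0.088, that of Ryr1. These tests rest on counts of 0 to 6 UMIs per gene and group, so they do not show that the groups are alike. What difference such counts could show was not tested.

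**Figure D3:**
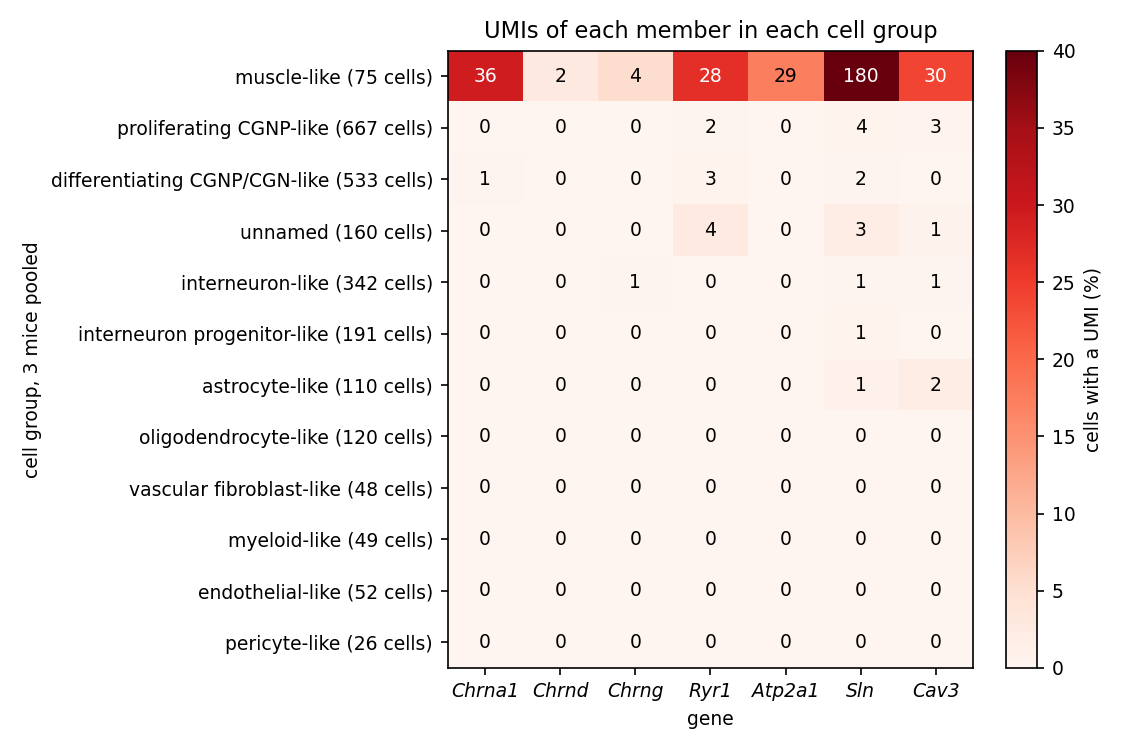
UMIs of each gene in every cell group, 3 mice pooled (numbers), over the share of cells with at least 1 UMI (colour, in %). The muscle-like row holds 2 to 180 UMIs per gene, and no other group holds more than 4 of any gene.

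Levels in the other groups could not be ordered, because no group held more than 4 UMIs of any of the 7 genes. The 120 oligodendrocyte-like, 48 vascular fibroblast-like, 49 myeloid-like, 52 endothelial-like and 26 pericyte-like cells had none of them. In all, 29 of the 2298 other cells (1.26%) held a UMI of 1 of the genes, none held 2 of the genes, and 7 of these 29 cells also held a sarcomere UMI. Sarcomere transcripts themselves were scattered more widely, with 630 UMIs in 21.8% of the other cells. Per 1000 sarcomere UMIs the 7 genes together gave 49.8 UMIs in the muscle-like cells and 47.6 in the others. The single genes departed from this on small counts, with Sln at 29.0 and 19.0 and Ryr1 at 4.51 and 14.3. The part of free RNA in the UMIs outside the muscle-like cells was not tested.

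Shares of cells with a UMI were read beside the depth of the cells, whose median was 1388 UMIs in muscle-like and 1024 in other cells. Averaged over mice, Sln was seen in 38.6 ± 11.8% of muscle-like cells (SD, n = 3), Chrna1 in 29.3 ± 6.77%, Ryr1 in 25.1 ± 13.4%, Cav3 in 23.2 ± 7.19% and Atp2a1 in 16.5 ± 13.6%. In all other cells the share was 0.415% for Sln, 0.416% for Ryr1, 0.263% for Cav3, 0.0379% for Chrna1 and 0 for Atp2a1. With every cell thinned to 500 UMIs the muscle-like shares were 25.0% for Sln, 11.9% for Chrna1, 8.85% for Ryr1, 8.70% for Cav3 and 6.01% for Atp2a1. The thinned shares in other cells were at most 0.194%, that of Ryr1.

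Detection varied from cell to cell within the cluster. Of the 75 muscle-like cells, 45 held a UMI of at least 1 of the genes, 30 held at least 2 of the genes, and 17 held at least 3. The share of cells with any of the genes was 66.7%, 50.0% and 60.7% in mice 1, 2 and 3. Sln and Chrna1 were found together in 16 cells, Sln and Ryr1 in 13, Sln and Cav3 in 13, and Sln and Atp2a1 in 11. The 45 cells with a UMI of the genes were deeper, with a median of 1870 UMIs against 911.5 in the 30 without. They also carried more of the contractile program, with a median of 57 sarcomere UMIs (3.99% of the cell's UMIs) against 4 (0.523%).

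**Figure D4:**
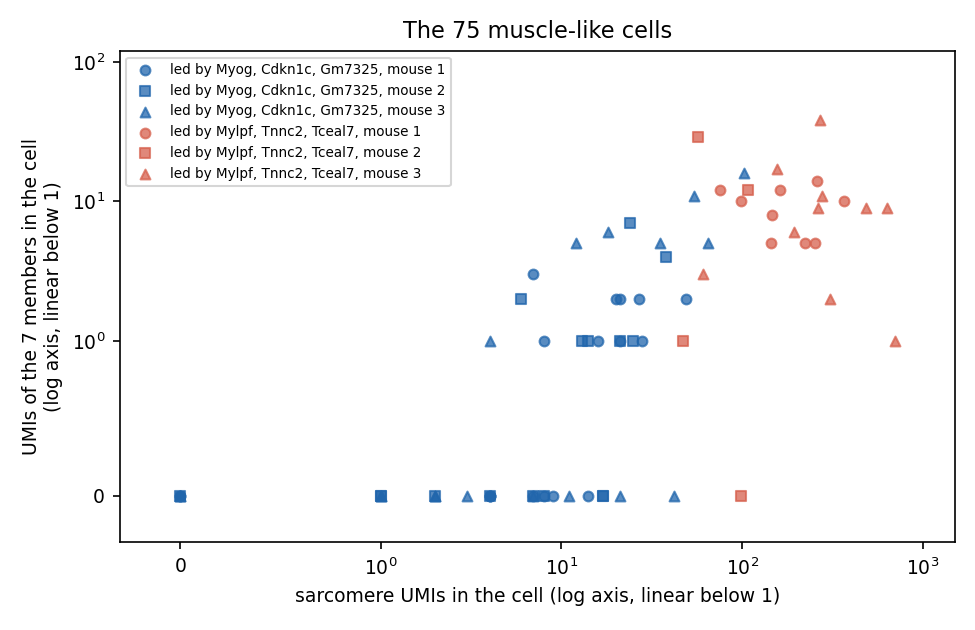
UMIs of the 7 genes against UMIs of the 16 sarcomere genes in each of the 75 muscle-like cells (both axes log, linear below 1), with the shape giving the mouse and the colour the sub-cluster. The 23 cells led by Mylpf (orange) lie mostly at the right, from 47 sarcomere UMIs upward, and 22 of them hold a UMI of the genes. Of the 52 cells led by Myog (blue), which reach 102 sarcomere UMIs, 23 hold one.

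At a clustering resolution of 1.2 in place of 0.8 the muscle-like cells split into 52 cells led by Myog, Cdkn1c and Gm7325 and 23 cells led by Mylpf, Tnnc2 and Tceal7. Myog is the myogenic factor of early differentiation and Cdkn1c a cell cycle inhibitor, whereas Mylpf and Tnnc2 are parts of the fast sarcomere. The split was made on genes of the same cells, so the values are a description without a test. Sarcomere genes took 1.08% of UMIs in the 52 cells and 8.15% in the 23. The 23 cells were also deeper, with a median of 2608 UMIs against 1182.5, and mouse 2 gave only 4 of them.

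Sln was at 205 CPM, 517 CPM and 656 CPM in the Myog-led cells of mice 1, 2 and 3, and at 2793 CPM, 7407 CPM and 1197 CPM in the Mylpf-led cells, higher in every mouse. These levels rest on 4, 8 and 27 UMIs against 57, 35 and 49. Cav3 gave 2, 2 and 1 UMIs in the Myog-led cells of mice 1, 2 and 3 and 9, 1 and 15 in the Mylpf-led cells, at 102 CPM, 129 CPM and 24.3 CPM against 441 CPM, 212 CPM and 366 CPM. Atp2a1 gave 0, 2 and 3 UMIs against 4, 3 and 17, at 0, 129 CPM and 72.9 CPM against 196 CPM, 635 CPM and 415 CPM. Chrna1 gave 2, 3 and 9 UMIs against 6, 3 and 13, at 102 CPM, 194 CPM and 219 CPM against 294 CPM, 635 CPM and 317 CPM. In mice 1 and 3 all 4 genes were at a higher level in the Mylpf-led cells, as were 27.5% of the 1474 genes with 20 or more UMIs in the muscle-like cells. In mouse 2, whose 4 Mylpf-led cells held 4725 UMIs, the counts of Cav3, Atp2a1 and Chrna1 were at or under the floor of 3 in both sub-clusters and give no order. Like Sln, 17.0% of the 1474 genes were at a higher level in the Mylpf-led cells of each mouse.

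Ryr1 had 14 UMIs in each sub-cluster, with 7, 2 and 5 in the Myog-led cells and 4, 0 and 10 in the Mylpf-led cells of mice 1, 2 and 3. These were 358 CPM, 129 CPM and 121 CPM against 196 CPM, 0 and 244 CPM. The level was higher in the Myog-led cells of mouse 1 and in the Mylpf-led cells of mouse 3, and the counts of mouse 2 were under the floor and give no order. After thinning to 500 UMIs, 8.82% of Myog-led and 10.1% of Mylpf-led cells held a Ryr1 UMI, compared with 14.0% and 50.4% for Sln, 4.37% and 18.6% for Cav3, 2.09% and 14.6% for Atp2a1, and 7.83% and 19.96% for Chrna1.

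Partners of the release channel were counted in the same cells. Stac3, an adaptor of the voltage sensor, gave 11, 1 and 9 UMIs in the Myog-led cells of mice 1, 2 and 3 (562 CPM, 64.6 CPM and 219 CPM) and 2, 1 and 6 in the Mylpf-led cells (98.0 CPM, 212 CPM and 147 CPM). Its level was higher in the Myog-led cells of mice 1 and 3, and the counts of mouse 2 give no order. Of 1474 genes with 20 or more UMIs, 624 were higher in the Mylpf-led cells of mouse 1 and 685 in those of mouse 3. The placing of Stac3 is therefore not particular to it. Jsrp1, a junctional protein, gave 4, 4 and 5 UMIs (205 CPM, 258 CPM and 121 CPM) against 8, 1 and 13 (392 CPM, 212 CPM and 317 CPM). Its level was higher in the Mylpf-led cells of mice 1 and 3 and lower, on 1 UMI against 4, in mouse 2. Trdn, which ties the channel to calsequestrin, gave 0 UMIs in the 52 Myog-led cells and 37 in the 23 Mylpf-led cells, where 73.9% of cells held one (exact 95% interval 51.6 to 89.8%). Casq2, the calcium store of the reticulum, gave 2 and 43 UMIs. Chrnb1 gave 0, 3 and 9 UMIs in the Myog-led cells of mice 1, 2 and 3 and 3, 0 and 8 in the Mylpf-led cells. Both counts were above the floor in mouse 3 alone, at 219 CPM against 195 CPM.

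**Figure D5:**
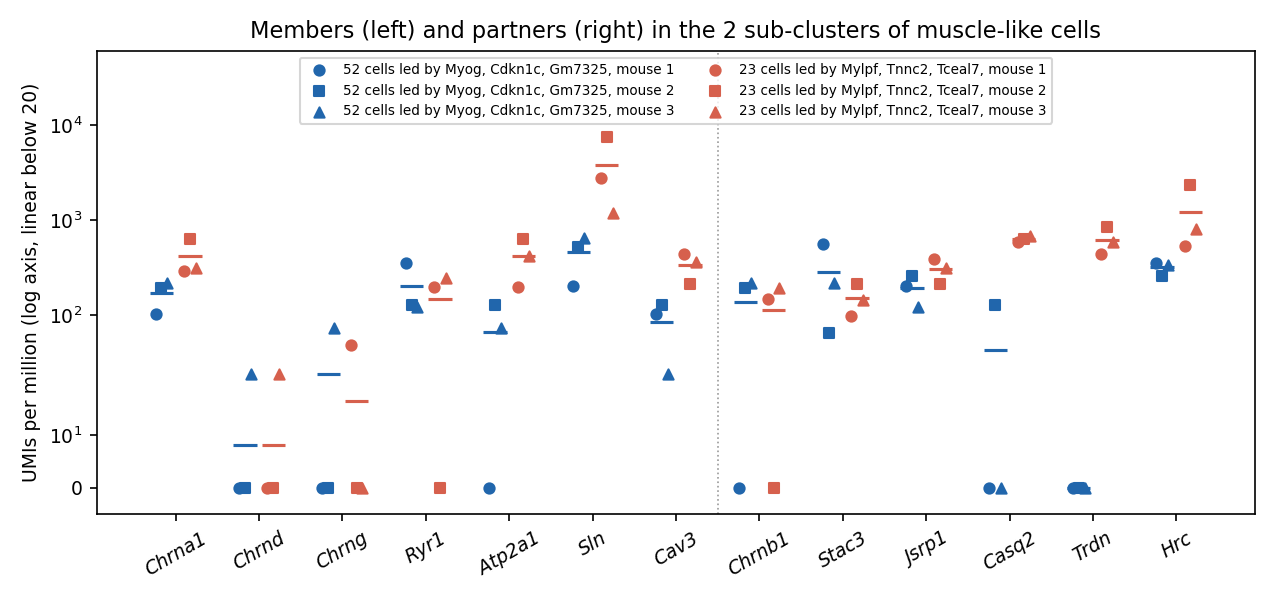
Level of the 7 genes and 6 partners in the Myog-led (blue) and Mylpf-led (orange) muscle-like cells of each mouse, in CPM (log axis, linear below 20), with the bar giving the mean of 3 mice. In mouse 2 only 4 Mylpf-led cells were found and most of its points there stand for 3 UMIs or fewer. In mice 1 and 3 Sln, Cav3, Atp2a1, Chrna1, Casq2, Trdn, Hrc and Jsrp1 lie higher in the Mylpf-led cells and Stac3 lies lower, while Ryr1 lies lower in mouse 1 and higher in mouse 3.

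The lists of pathway genes were read in muscle-like against all other cells. Of 72 further listed genes, 58 were in the tables and 20 passed the filter, with 9 higher, 2 lower and 9 that did not pass the test, beside 6.42% higher and 13.6% lower of all 5870 genes tested. The lists were chosen with earlier results of these data known and the filter lets in genes that are high in the muscle-like cells alone, so these counts are a description and support nothing. In the release list, Trdn, Jsrp1 and Stac3 were higher by 6.93, 5.57 and 4.62 on the log2 scale (edgeR quasi-likelihood adjusted p = 3.0e-13, 4.2e-12 and 2.3e-09). In the uptake and storage list, Hrc, a calcium-binding protein of the reticulum, was at 588 ± 147 CPM (SD, n = 3) against 2.31 ± 1.42 CPM, and Casq2 at 296 ± 46.9 CPM against 2.55 ± 1.65 CPM. Their log2 fold changes were 7.86 and 6.98 (edgeR quasi-likelihood adjusted p = 1.2e-18 and 3.2e-14). Tmem38a, a cation channel of the reticulum, was higher by 3.48 (edgeR quasi-likelihood adjusted p = 3.7e-05). Casq1, the calsequestrin of adult fast fibres, had 0 UMIs in muscle-like cells and 3 in the others, so Casq2 was 45 of 45 calsequestrin UMIs in muscle-like cells and 6 of 9 elsewhere (66.7%, exact 95% interval 29.9 to 92.5%).

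Calr, the calcium store protein of the general endoplasmic reticulum, was lower, at 276 ± 28.5 CPM against 500 ± 68.1 CPM (SD, n = 3; log2 fold change -0.89, edgeR quasi-likelihood adjusted p = 0.029). In the caveolar list, Bin1, which bends the T-tubule membrane and also has a neuronal form, was at 702 ± 307 CPM against 87.5 ± 6.49 CPM (log2 fold change 3.04, edgeR quasi-likelihood adjusted p = 3.6e-11). Cavin3, listed under its older symbol Prkcdbp, was lower, with 1 UMI against 174 (log2 fold change -3.09, edgeR quasi-likelihood adjusted p = 0.028). None of the 4 neuronal receptor subunits passed the filter. Of 11 genes that move calcium outside the muscle reticulum, 3 (Atp2b1, Atp2b2 and Itpr2) were tested, with edgeR quasi-likelihood adjusted p of 0.31, 0.30 and 0.23.

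The genes whose levels were most like the sum of the 7, over 45 sums of a mouse and a cluster on the scale log2(CPM + 20), were Apobec2 (Pearson r = 0.953), Mypn (0.945), Ckm (0.945), Lmod3 (0.939) and Tnni1 (0.936). These correlations rest on the contrast of 1 cluster with the rest, and the sums of a mouse share a library, so they are given as a description. Apobec2 had 38 UMIs in muscle-like and 2 in all other cells, and Mypn, a sarcomere protein, 16 and 0.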

How the data were processed

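UMI counts per gene and cell barcode were analysed as deposited by the authors: raw whole numbers, 1 table per mouse, without normalization. Per the labels, libraries followed the Drop-seq protocol with a 3′ bias, and the submitters' processing notes name STAR and mm10, with no version. The study's stated filters were applied per mouse: at least 500 UMIs and 200 genes, at most 4 SD above the median of either, and at most 10% mitochondrial UMIs. That upper limit was the only treatment of doublets, and no caller was run. Genes seen in at least 30 cells entered clustering (Seurat 5.3.0, sctransform 0.4.2, R 4.3.3; 3000 variable genes, 15 principal components, resolution 0.8), from which the listed pathway genes were held out. Naming a cluster took 3 or more markers of 1 type, and fewer of every other type. A marker counted if 10% or more of the cluster's cells held it and its level, with 20 CPM added, was 2 times that elsewhere.

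UMIs were summed per mouse and cell group. The sums were tested over all genes with edgeR 4.0.16 (TMM, filterByExpr, quasi-likelihood test, Benjamini-Hochberg adjustment, threshold 0.05), after a check on simulated counts. Each SE was derived from the log2 fold change and the F statistic. Exact 95% intervals (Clopper-Pearson, or conditional for ratios) and the floor of 3 counts cover counting error only. Thinned shares are those expected when 500 UMIs per cell are drawn.

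The summed groups are paired by animal. The correlation of their deviations from the group means, across genes that are not independent, was 0.111, 0.0894 and 0.210 in mice 1, 2 and 3 for muscle-like against all other cells, and 0.0775 to 0.372 in the other comparisons. The mouse was fitted as a block as an alternative.

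The genes named are the 7 members, 15 relatives and partners, up to 3 further genes per list and direction with the largest passing change, and the 5 genes most like the members in their levels. Outside this rule, Rabep2, the neuronal subunits, Atp2b1, Atp2b2, Itpr2, Myog, Mylpf, the leading genes of clusters and the marker genes, were named after their values were seen. The members and lists were chosen with earlier results of these data known. Of 79 listed genes 65 were in the tables, 5 of them under older symbols paired by RefSeq synonyms. Promoter windows are from RefSeq, GRCm38.p6. The minimum of 20 UMIs for the share of genes higher between sub-clusters was chosen after the data were seen, as were the pooled ratios without each mouse, the fold changes without each mouse against CGNP/CGN-like and outside cells and for Eed, and the block for listed genes and Eed. The level of a member was also taken as a mean over cells. Alternatives were DESeq2 1.42.0, its size factors in edgeR, no filter on low counts, leaving out each mouse, resolutions of 0.4 and 1.2, a minimum of 1000 UMIs, no upper limit, no genes held out, and muscle-like cells defined by at least 5 sarcomere UMIs.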

Additional observations from a re-analysis of the deposited data

Results flagged for a closer look

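Barcodes that the filters left out held UMIs of the genes above the limit that a count of 0 allows. The 35 barcodes above the upper limit of molecules or genes gave 27 UMIs of Sln, 13 of Cav3, 13 of Chrna1, 6 of Atp2a1, 6 of Ryr1, 4 of Chrng and 1 of Chrnd, in 8 barcodes. Of these 70 UMIs, 65 lay in 4 barcodes with at least 100 sarcomere UMIs each, 2 in mouse 1 and 2 in mouse 2, of 3633 to 7777 UMIs in all. In these 4 barcodes the 7 genes together were at 3210 CPM, beside 2172 CPM in the pooled muscle-like cells. The 4 Chrng UMIs there, all in mouse 1, equal the number in the 75 muscle-like cells.

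The 1056 barcodes with too few molecules or genes gave 11 UMIs of Sln, 6 of Ryr1, 2 of Chrna1, 1 of Atp2a1 and 1 of Cav3, in 14 barcodes. Among the 1056, 7 barcodes had at least 5 sarcomere UMIs. The 17 barcodes left out for their mitochondrial share alone held none. Whether these barcodes are single cells was not tested.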

How the results depend on the processing

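The 63 alternative log2 fold changes of Sln, Atp2a1, Ryr1, Cav3 and Chrna1 in muscle-like against all other cells kept their direction and stayed past the threshold (highest adjusted p = 2.7e-08, over edgeR quasi-likelihood and DESeq2 fits). With the mouse as a replicate block the counts of genes called higher remained 5, 5 and 5 in the 3 muscle-like comparisons, with log2 fold changes of 8.19 for Sln and 5.83 for Ryr1, and the calls of the 25, 22 and 18 listed genes tested there were the same with it. In CGNP/CGN-like against outside cells it raised the calls among 18 listed genes from 9 to 12, since Atp2a2, Calr and Pacsin3, lower by a log2 fold change of -0.66, -0.57 and -1.33, went from edgeR quasi-likelihood adjusted p of 0.12, 0.080 and 0.055 to 0.017, 0.00064 and 0.045. Leaving out 1 mouse gave 3 to 5 of the genes higher against all other cells, 3 to 5 against CGNP/CGN-like cells and 2 to 5 against cells outside the Atoh1 lineage. The low values came without mouse 3, the deepest library, because Atp2a1 and Chrna1 (and Ryr1 outside the lineage) then missed the filter on low counts and were not tested. Against all other cells, with 1 mouse left out, the log2 fold change ran from 7.80 to 8.81 for Sln, 5.34 to 6.31 for Ryr1 and 5.89 to 7.19 for Cav3. A minimum of 1000 UMIs per cell left 2 of the genes tested and higher against cells outside the lineage (Chrna1 and Sln). Without the filter on low counts 6 were higher against CGNP/CGN-like cells, Chrng being added. In CGNP/CGN-like against outside cells the 7 genes passed the filter on low counts in no fit, and without that filter none of the 5 tested was called. Clustering with no genes held out and the definition by sarcomere UMIs were run against all other cells only. Thinning lowered 4 muscle-like shares, and that of Ryr1 in other cells, by more than their SD between mice, and taking the mean of CPM per cell moved no level by as much. In the pooled muscle-like cells 3 counts correspond to 21.1 CPM, beside 14.1 CPM for Chrnd and 28.1 CPM for Chrng.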
